A study of Homo sapiens with 30 samples.

Results

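The experiment described here is the knockdown of USP7 in LNCaP, a human prostate cancer cell line that responds to androgen. Its members were all genes with a value of at least 1 FPKM in at least 3 of the 6 libraries compared, 3 shUSP7 and 3 pLKO. The rule kept 11987 of 26443 genes with values. The series holds 30 LNCaP RNA-seq libraries in 10 groups of 3, and it asks, by its title, how polycomb proteins and a complex of BUB3 and USP7 act on FOXA1. The groups used here came from 1 experiment of 4 groups, in which cells had been infected for 5 days with an shRNA against USP7 (shUSP7), BUB3 (shBUB3) or FOXA1 (shFOXA1), or with the control hairpin in the pLKO vector (pLKO). All 4 groups thus went through infection, all were grown in serum-containing RPMI, and no drug or hormone treatment is named in the labels. The 3 shUSP7 libraries carried the same hairpin, labelled shUSP7-1, so an effect of the hairpin other than the loss of USP7 cannot be told apart from USP7 loss. Nothing in the labels ties replicates to separate cultures. The p-values therefore measure the spread between these libraries, which may be technical.

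USP7 is a deubiquitinase, an enzyme that removes ubiquitin from other proteins and so spares them from the proteasome. Its best known client is MDM2, the ubiquitin ligase that marks p53 for destruction. p53 is a transcription factor that switches on genes for cell cycle arrest, cell death and DNA repair. Through the arrest gene CDKN1A it leads to the assembly of the DREAM complex, which silences cell cycle genes at a promoter element called the cell cycle homology region, while E2F sites serve the genes of DNA replication. USP7 also acts on PRC1 polycomb subunits and on the DNA methyltransferase DNMT1. RNA levels show none of these protein events directly.

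The deposited values are FPKM, a unit per length of transcript and per size of library. Relative to the first pLKO library, depth was 0.9525 to 1.10 in the shUSP7 libraries and 0.9001 to 1.13 in the pLKO libraries, as read from the steps between low values. Across genes, log2 values of any 2 shUSP7 libraries, or any 2 pLKO libraries, correlated with r no lower than 0.9947. Of the 12 libraries in the fit, the third of shBUB3 differed most from its group. Its FPKM values summed to 367614, while the remaining libraries lay between 235344 and 306578. It enters the comparison of shUSP7 with pLKO only through the shared estimate of spread, and values without it are given where they differ. LNCaP markers were present in both groups, with all 11 of 11 tested and summed levels of 1420 to 1490 FPKM in shUSP7 cells, against 2502 to 2554 FPKM in pLKO cells. Most of that difference was KLK3, which averaged 298.8 FPKM in shUSP7 and 1088.5 FPKM in pLKO cells. Of the 11 markers 6 fell, 1 rose and 4 were not called. Basal and neuroendocrine markers were near 0, and 0 of 6 and 0 of 8 reached the filter. Their sums went up to 0.698 and 0.806 FPKM in shUSP7 libraries, against 1.37 and 1.23 FPKM in pLKO libraries. Of 10 stromal markers 3 passed the filter, of 10 immune markers 1 (CD68) and of 6 endothelial markers 1 (VWF). Of the 3 stromal markers 2 fell and 1 rose, with log2 fold changes of shUSP7 over pLKO from -0.99 to 0.80. CD68 fell (-0.69) and VWF rose (0.98). Among markers under the filter, COL1A2, DES, CD3E and MS4A1 were at 0 in the means. In bulk RNA, fewer cells of a type and less RNA per cell cannot be told apart, and the part of these markers in the results was not tested. The sums of the last 3 lists were 3.86 to 4.21 (stromal), 2.75 to 3.02 (immune) and 4.40 to 4.67 FPKM (endothelial) in shUSP7 cells, against 7.06 to 7.53, 4.19 to 5.39 and 1.83 to 1.85 FPKM in pLKO cells.

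The hairpin lowered its target. USP7 (chromosome 16, 8892094 to 8964514, GRCh38, minus strand) had 6.38, 6.14 and 6.13 FPKM in shUSP7 libraries, against 28.6, 28.3 and 27.6 FPKM in pLKO libraries. The groups did not overlap, and the means were 6.21 ± 0.143 FPKM and 28.2 ± 0.517 FPKM (SD, n = 3 each). That was a log2 fold change of -2.02 ± 0.052 (SE) on the log2(FPKM + 1) scale, with limma's adjusted p = 7.6e-11. All fold changes below are on this scale, shUSP7 over pLKO unless said otherwise, which understates the change of genes near or under 1 FPKM. Genes at a limma adjusted p under 0.05, over all genes tested, are called as having risen or fallen. With 3 against 3 libraries an exact permutation test cannot go below p = 0.1, so statements on single genes rest on the limma fit.

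Most of the transcriptome moved by a little and a small part by a lot. Of the 11987 genes, 7610 were called (63.5%), 3615 higher (30.2%) and 3995 lower (33.3%), while the libraries of the 2 groups did not overlap at 9354 genes (78.0%). Falls outnumbered rises at larger sizes. At least 2-fold changes were called for 329 genes higher (2.74%) and 723 lower (6.03%), and at least 4-fold changes for 24 higher (0.200%) and 151 lower (1.26%). The median fold change was -0.01 on the log2 scale, and 90% of genes lay between -1.08 and 0.82. Because nearly 2 in 3 genes were called, the size of a change and the median of a list say more than a call alone. With the pseudocount at 0.1, the 2-fold counts were 519 higher and 1157 lower.

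**Figure D1:**
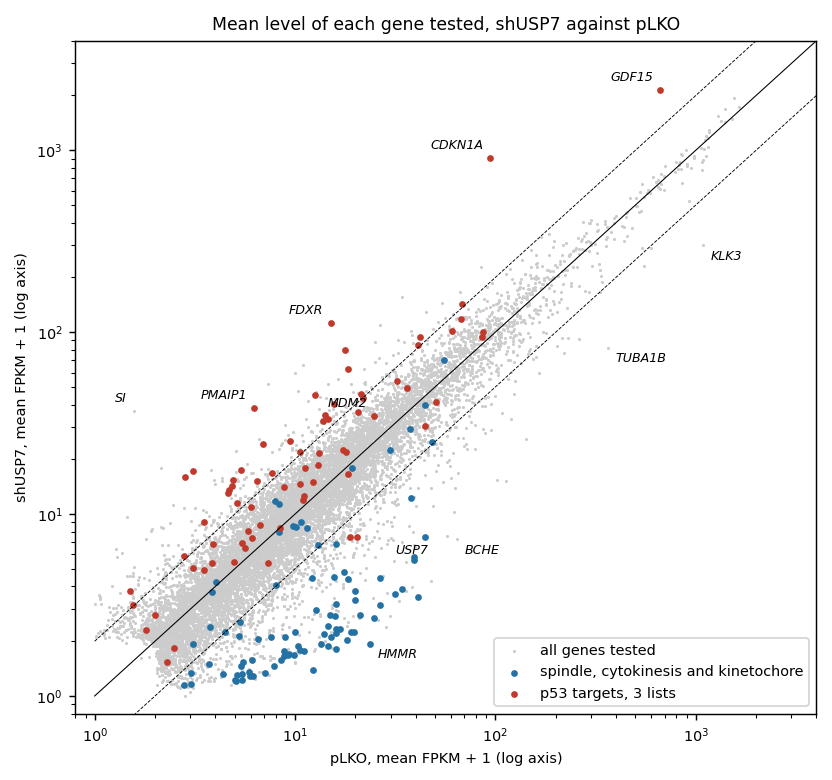
Mean FPKM + 1 of each of the 11987 genes tested, shUSP7 on the vertical and pLKO on the horizontal axis, both logarithmic; the solid line marks equal levels and the dashed lines a 2-fold difference. Genes of the spindle, cytokinesis and kinetochore lists (blue) lie below the lower dashed line for the most part, p53 targets (red) mostly above the solid line, and CDKN1A, GDF15 and KLK3 stand out among abundant RNAs.

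The p53 regulators MDM2 and MDM4 rose by less than 2-fold at the RNA level, though by more than the 75th percentile of all genes (0.29). MDM2, at once the ligase of p53 and a p53 target, had 33.3, 33.1 and 34.3 FPKM in shUSP7 libraries and 24.4, 23.2 and 23.7 FPKM in pLKO libraries (0.48 ± 0.086). Its relative MDM4, which blocks p53 as a transcription factor, also rose (0.39 ± 0.082), with 10.1, 9.69 and 8.76 FPKM in shUSP7 libraries and 6.83, 6.93 and 7.25 FPKM in pLKO libraries. Neither overlapped between the groups.

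Many targets of p53 rose far more than MDM2 and MDM4. In the list for arrest and feedback, 22 of 24 tested members rose, 1 fell (SESN1, a stress-induced antioxidant gene, -0.14) and 1 was not called (SFN), with a median of 1.06 against -0.01 for all genes. CDKN1A (chromosome 6, 36676460 to 36687339), which encodes the CDK inhibitor p21, had 893.5, 920.4 and 897.5 FPKM in shUSP7 libraries against 94.2, 90.3 and 95.8 FPKM in pLKO libraries (3.26 ± 0.069, adjusted p = 3.5e-11). BTG2, an antiproliferative cofactor of mRNA decay, had 77.0, 79.1 and 79.7 FPKM in shUSP7 libraries and 17.6, 16.4 and 16.6 FPKM in pLKO libraries (2.16 ± 0.053). GADD45A, a growth arrest gene, averaged 44.4 and 11.6 FPKM (1.85), and the polo-like kinase gene PLK2 averaged 23.2 and 5.92 FPKM (1.81). PHLDA3, an inhibitor of AKT signalling, rose by 1.76, and GDF15, a secreted stress cytokine, had 2130, 2182 and 2115 FPKM in shUSP7 libraries against 647.1, 678.4 and 671.6 FPKM in pLKO libraries (1.69). By mean FPKM, GDF15 was the gene that rose most of all those changed at least 2-fold, ahead of CDKN1A. RPRM was under the filter.

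Among apoptosis targets 17 of 19 tested members rose and 2 fell, with a median of 0.99. PMAIP1 (chromosome 18, 59899948 to 59904306), which encodes the BH3-only protein NOXA, had 39.2, 36.3 and 36.6 FPKM in shUSP7 libraries against 5.18, 5.16 and 5.37 FPKM in pLKO libraries (2.62 ± 0.062, adjusted p = 5.4e-11). BBC3, which encodes the related killer protein PUMA, had 16.99, 16.13 and 16.16 FPKM in shUSP7 libraries and 4.40, 4.61 and 4.08 FPKM in pLKO libraries (1.70). The groups were far apart for both. IGFBP3, which binds insulin-like growth factors, rose by 2.50, the quinone oxidoreductase gene TP53I3 by 2.47, the death receptor gene FAS by 1.37 and the nuclease gene AEN by 1.30. BAX, the pore-forming effector, averaged 42.5 and 20.9 FPKM (0.99). The anti-apoptotic gene BCL2L1 rose as well (1.11). The 2 members that fell were APAF1, the scaffold of the apoptosome (-0.58), and SIVA1 (-0.53). TNFRSF10C, TP53AIP1 and EDA2R were under the filter.

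Of the targets in DNA repair and metabolism 22 of 30 rose, 5 fell and 3 were not called, with a median of 0.67. FDXR (chromosome 17, 74862497 to 74873031), a mitochondrial electron carrier, had 107.4, 112.0 and 114.0 FPKM in shUSP7 libraries against 13.5, 14.1 and 14.6 FPKM in pLKO libraries (2.90 ± 0.15, adjusted p = 1.1e-08). XPC, the damage sensor of nucleotide excision repair and a reported USP7 client, averaged 39.1 and 14.6 FPKM (1.36). ACER2, an alkaline ceramidase, rose by 1.57, and SUSD6 by 1.25. The members that fell most were CMBL (-1.46), a hydrolase, and LPIN1 (-1.34), which acts in triglyceride synthesis and as a coactivator. CMBL had 6.45, 5.97 and 7.01 FPKM in shUSP7 libraries and 19.5, 19.5 and 19.4 FPKM in pLKO libraries. Not every gene of the p53 programme moved the same way.

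**Figure D2:**
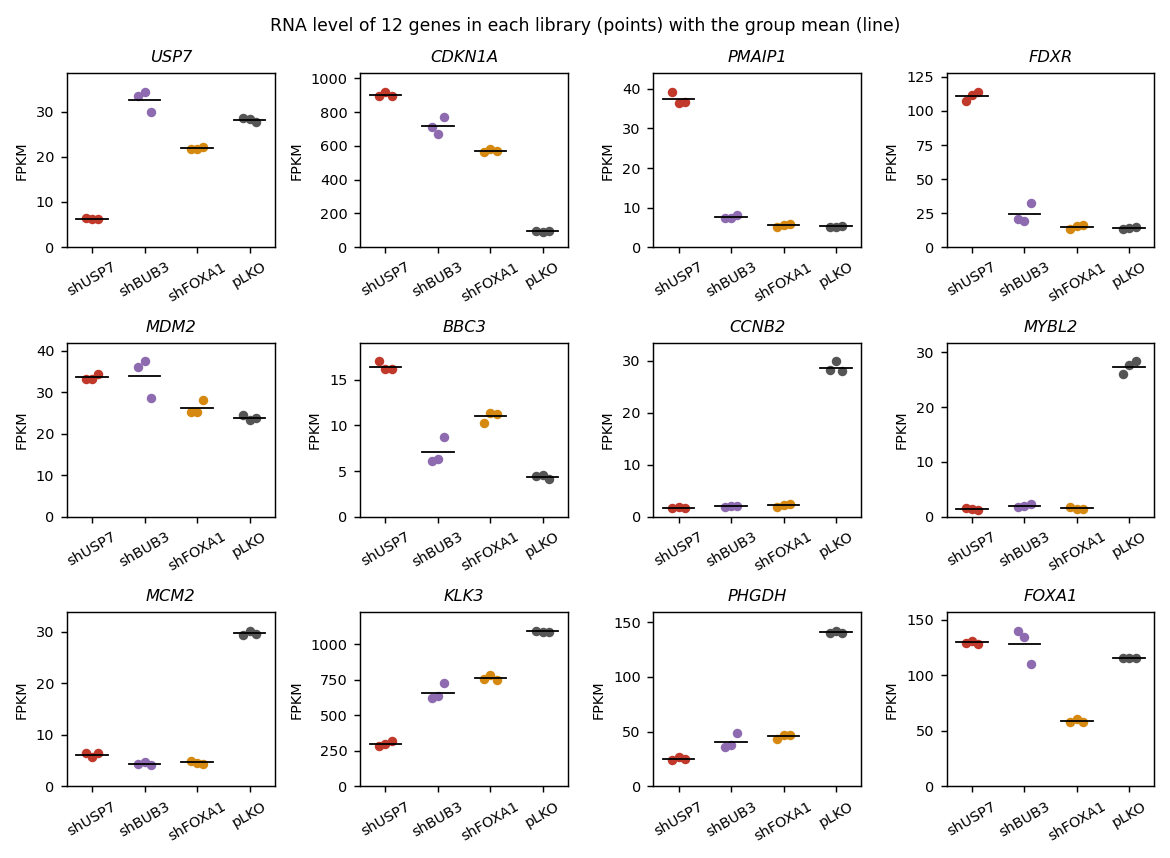
FPKM of 12 genes in each library (points; vertical axes start at 0) with the group mean (line), for shUSP7, shBUB3, shFOXA1 and pLKO. FDXR and PMAIP1 are highest in the shUSP7 libraries, CDKN1A is high and CCNB2, MYBL2 and MCM2 are low in all 3 knockdowns relative to pLKO, and MDM2 and FOXA1 in the third shBUB3 library lie apart from its 2 replicates.

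Most cell cycle genes fell, and the fall was deepest in mitosis. Whether it is tied to the rise of p53 targets was not tested. Of the cyclins, CDKs and CDC25 phosphatases 14 of 16 tested members fell, 1 rose (CCND1, 0.14) and 1 was not called, with a median of -1.53. CCNB2, a mitotic cyclin, had 1.73, 1.87 and 1.64 FPKM in shUSP7 libraries against 28.2, 29.9 and 28.1 FPKM in pLKO libraries (-3.44 ± 0.071). Its kinase CDK1 had 2.82, 2.75 and 2.76 FPKM in shUSP7 libraries and 34.2, 36.7 and 33.7 FPKM in pLKO libraries (-3.25), while the interphase kinase CDK4 averaged 39.1 and 49.0 FPKM (-0.32). Among the other cyclins CCNA2 changed by -2.90, CCNE2 by -1.01, CCNE1 by -0.67 and CCND3 by -0.20, while CCNF was not called (0.04). CCNA1, CCNB3, CCND2 and CDK6 were under the filter.

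The spindle and cytokinesis list had the lowest median of all lists, -2.39, with 39 of 43 members lower, 38 of them at least 2-fold, and 2 higher. HMMR, a microtubule-associated protein, had 0.899, 0.826 and 1.08 FPKM in shUSP7 libraries against 22, 22.9 and 23.5 FPKM in pLKO libraries (-3.62 ± 0.098). NUSAP1, which bundles spindle microtubules, had 2.13, 2.58 and 2.74 FPKM in shUSP7 libraries and 41.4, 40.7 and 37.6 FPKM in pLKO libraries (-3.56 ± 0.11). The mitotic kinase PLK1 fell by 3.13, survivin (BIRC5) by 3.12 and CEP55, which acts at the last step of division, by 3.14. The members that did not fall included KIF5B (0.36) and KIF3A (0.58), motors of vesicle and ciliary transport. Of 46 kinetochore genes 39 fell, 1 rose (MAD1L1, 0.46) and 6 were not called, with a median of -1.84, led by SPC24 (-3.21), NUF2 (-3.15) and CENPF (-3.13). BUB3 itself, the partner named in the study's title, had 28.5, 27.9 and 28.8 FPKM in shUSP7 libraries against 36.9, 38.3 and 33.7 FPKM in pLKO libraries (-0.34 ± 0.081), among the smallest falls of that list.

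Cohesin and condensin genes fell in 18 of 23 cases (median -0.85) and rose in 3. The condensin genes NCAPG (-2.71), SMC2 (-2.64) and NCAPD2 (-2.29) and the securin gene PTTG1 (-3.28) fell at least 4-fold, as did the cohesin regulators ESCO2 (-2.51) and CDCA5 (-2.43). The cohesin subunit genes SMC1A (-0.54) and SMC3 (-0.30) fell less, and the cohesin loader NIPBL rose (0.52). In the anaphase-promoting complex list 10 of 19 fell, 2 rose and 7 were not called (median -0.26). The activator CDC20 had 3.32, 3.67 and 2.94 FPKM in shUSP7 libraries against 47.2, 48.5 and 44.3 FPKM in pLKO libraries (-3.47), and the ubiquitin-conjugating enzyme UBE2C fell by 2.83, whereas core subunits such as ANAPC7 (-0.09) and CDC16 (-0.11) were not called and CDC23 rose (0.51).

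DNA replication genes fell almost without exception but less deeply. In the origin and fork list 49 of 53 fell, 1 rose (ORC5, 0.70) and 3 were not called, with a median of -1.32. The helicase loaders CDC6 (-2.73) and CDT1 (-2.54), the helicase cofactor CDC45 (-2.78) and the primase PRIM1 (-2.39) led. MCM2, a helicase subunit, had 6.39, 5.67 and 6.43 FPKM in shUSP7 libraries and 29.4, 30.2 and 29.7 FPKM in pLKO libraries (-2.10 ± 0.065). In the nucleotide supply list 21 of 31 fell and 1 rose (median -0.49): RRM2, the small subunit of ribonucleotide reductase, fell by 3.31 with means of 2.33 and 31.9 FPKM, while its p53-induced relative RRM2B was the member that rose, with means of 32.3 and 13.6 FPKM (1.18). Of 40 recombination and checkpoint genes 34 fell and 1 rose (median -1.01), including FANCI (-2.49), RAD54L (-2.35), RAD51AP1 (-2.28) and BRCA1 (-2.09), whereas the kinases ATM (-0.22) and ATR (-0.09) were not called.

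The transcription factors above these genes changed with them. In the E2F, RB and MuvB list 12 of 20 fell, 5 rose and 3 were not called (median -0.32). The activators fell: MYBL2, the factor of mitotic promoters, had 1.56, 1.44 and 1.16 FPKM in shUSP7 libraries against 26.1, 27.7 and 28.4 FPKM in pLKO libraries (-3.58 ± 0.086), FOXM1 fell by 2.95 and E2F1 by 2.08. The repressive pocket protein RBL2, a DREAM subunit, rose instead (0.57), with means of 34.9 and 23.2 FPKM, as did the MuvB subunits LIN52 (0.56) and LIN37 (0.29), while LIN9 (-1.31) and LIN54 (-0.68) fell. Among 7 CDK inhibitors 3 rose, 3 fell and 1 was not called. Besides CDKN1A, CDKN2B had 1.81, 1.52 and 1.82 FPKM in shUSP7 libraries and 0.334, 0.550 and 0.384 FPKM in pLKO libraries (0.93). CDKN2A, which encodes p16 and ARF, averaged 1.45 and 7.64 FPKM (-1.82), and CDKN2C fell by 1.77. CDKN1B rose by 0.13 (adjusted p = 0.0352) and was not called in 5 of the 6 fits that left out 1 shUSP7 or pLKO library (adjusted p up to 0.12).

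**Figure D3:**
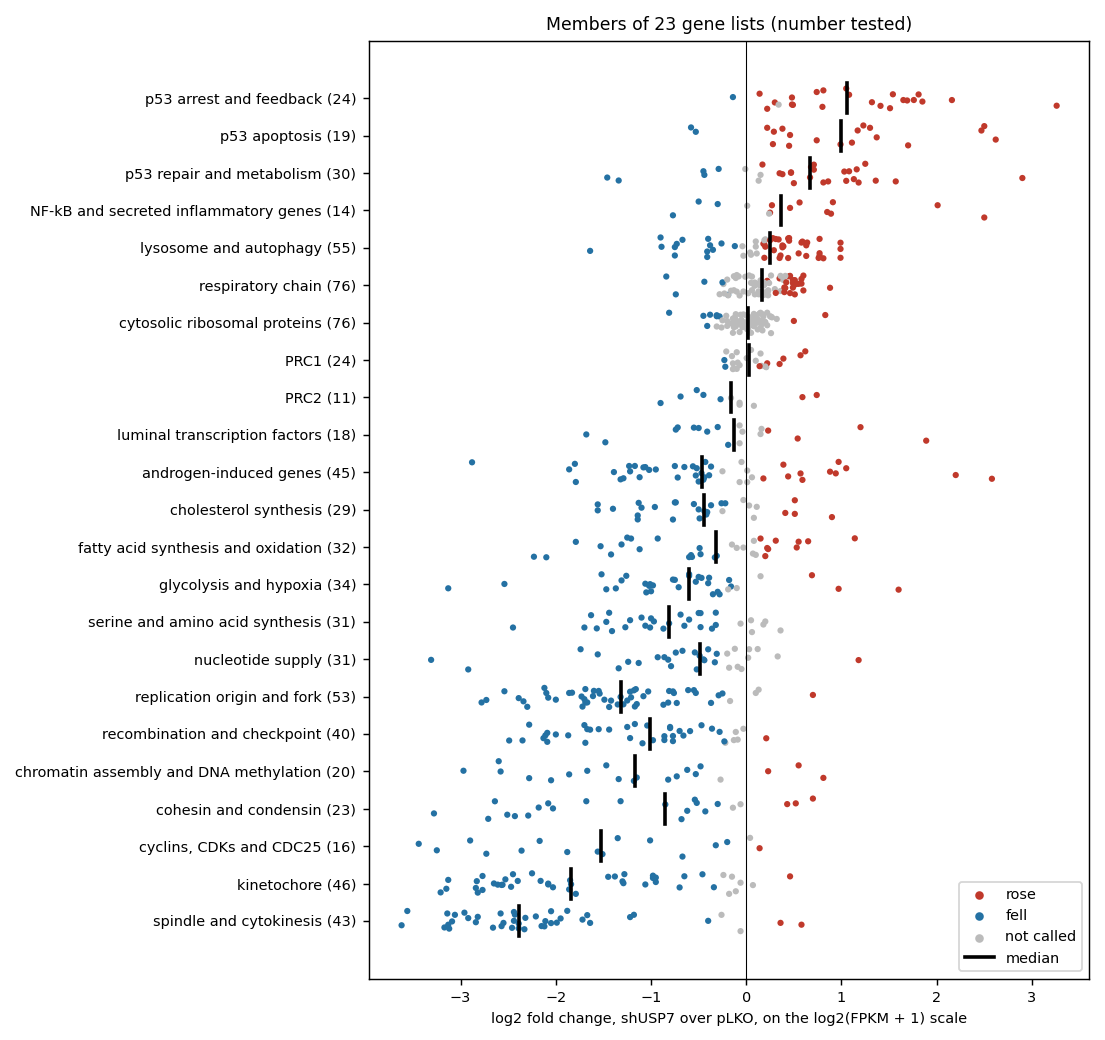
Log2 fold change of shUSP7 over pLKO for each tested member (points) of 23 gene lists, with the list median (bar); red rose, blue fell, grey not called. The spindle list has a median of -2.39 and the p53 arrest list one of 1.06, while ribosomal proteins and PRC1 subunits sit at 0.02 and 0.03.

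The promoters of the most lowered genes were read to see whether the cell cycle homology region was there. RefSeq promoters (GRCh38.p14, 250 bases before to 50 after the start) were found for 14 of the 15 lowest named genes, of which 9 held TTTGAA or TTCGAA on either strand. The promoters of the 4 lowest of those follow, 5′ to 3′ on the plus strand, with matches in capitals (TTCAAA is TTTGAA on the other strand), and CDKN1A is shown beside them as the highest of the p53 targets. HMMR is at chr5:163460382-163460681, NUSAP1 at chr15:41332631-41332930, CDC20 at chr1:43358731-43359030, CCNB2 at chr15:59104896-59105195 and CDKN1A at chr6:36678464-36678763, all on the plus strand.
HMMR: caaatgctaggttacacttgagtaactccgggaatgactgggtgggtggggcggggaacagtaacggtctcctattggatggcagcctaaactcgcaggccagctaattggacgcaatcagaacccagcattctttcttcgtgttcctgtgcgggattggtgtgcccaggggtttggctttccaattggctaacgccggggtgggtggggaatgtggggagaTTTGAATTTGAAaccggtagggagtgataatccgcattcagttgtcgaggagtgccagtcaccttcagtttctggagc
NUSAP1: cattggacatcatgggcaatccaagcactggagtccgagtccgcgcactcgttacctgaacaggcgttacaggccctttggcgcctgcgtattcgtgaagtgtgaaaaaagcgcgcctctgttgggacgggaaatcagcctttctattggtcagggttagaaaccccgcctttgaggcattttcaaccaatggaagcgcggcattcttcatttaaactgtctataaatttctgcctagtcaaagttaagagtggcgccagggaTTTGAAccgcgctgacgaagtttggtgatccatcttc
CDC20: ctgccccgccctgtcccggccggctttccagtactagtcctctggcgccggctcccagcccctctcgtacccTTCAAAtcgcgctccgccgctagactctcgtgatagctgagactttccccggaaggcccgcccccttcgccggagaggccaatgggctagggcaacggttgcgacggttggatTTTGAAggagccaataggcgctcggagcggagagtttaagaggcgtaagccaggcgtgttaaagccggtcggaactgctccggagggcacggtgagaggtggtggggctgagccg
CCNB2: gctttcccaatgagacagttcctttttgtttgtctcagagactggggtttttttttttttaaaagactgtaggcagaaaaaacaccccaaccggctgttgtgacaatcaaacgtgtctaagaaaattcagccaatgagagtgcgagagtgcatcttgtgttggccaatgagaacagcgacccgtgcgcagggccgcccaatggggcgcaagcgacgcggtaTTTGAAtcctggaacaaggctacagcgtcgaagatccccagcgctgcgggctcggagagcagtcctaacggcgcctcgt
CDKN1A: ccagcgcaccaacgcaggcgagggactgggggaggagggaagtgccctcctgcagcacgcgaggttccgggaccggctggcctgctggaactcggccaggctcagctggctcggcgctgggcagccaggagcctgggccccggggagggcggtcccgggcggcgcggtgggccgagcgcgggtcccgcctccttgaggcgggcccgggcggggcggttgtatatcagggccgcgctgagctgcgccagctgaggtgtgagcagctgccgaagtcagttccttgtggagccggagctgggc
The HMMR promoter holds the element as a direct repeat and the CDC20 promoter on each strand. The CDKN1A window holds none, and no full p53 site without a spacer either; the known p53 sites of this gene lie further upstream than the window reaches.

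The lists that fell differed in the motif their promoters carried. TTTGAA or TTCGAA was in 28 of 37 spindle and cytokinesis promoters (75.7%) and in 19 of 37 kinetochore promoters (51.4%), but in 2 of 46 replication promoters (4.35%), beside 16.6% of all 27305 promoters of that length. An E2F motif was searched on both strands as TTTCGCG, as well as TTTGGCG and likewise TTTCCCG, none of which contains the cell cycle element. It was in 23 of 46 replication promoters (50%), 6 of 37 spindle promoters (16.2%) and 7.28% of all promoters. CCAAT, on either strand, was in 78.4% of spindle, 59.5% of kinetochore and 56.5% of replication promoters, beside 35.7% of all. Among p53 apoptosis and repair targets the cell cycle element was in 1 of 16 and 1 of 26 promoters. These are matches of letters in a window and not bound sites. Promoters were found for 578 of the 723 genes at least 2-fold lower and 239 of the 329 at least 2-fold higher, under 80% of each, so a check over those sets is void and no share is given for them. Over all genes tested the match is also under 80% (9422 of 11987), and in those found the cell cycle element was in 10.6% and an E2F motif in 12.1%, so the E2F share of the spindle list is not far from that of tested genes.

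**Figure D4:**
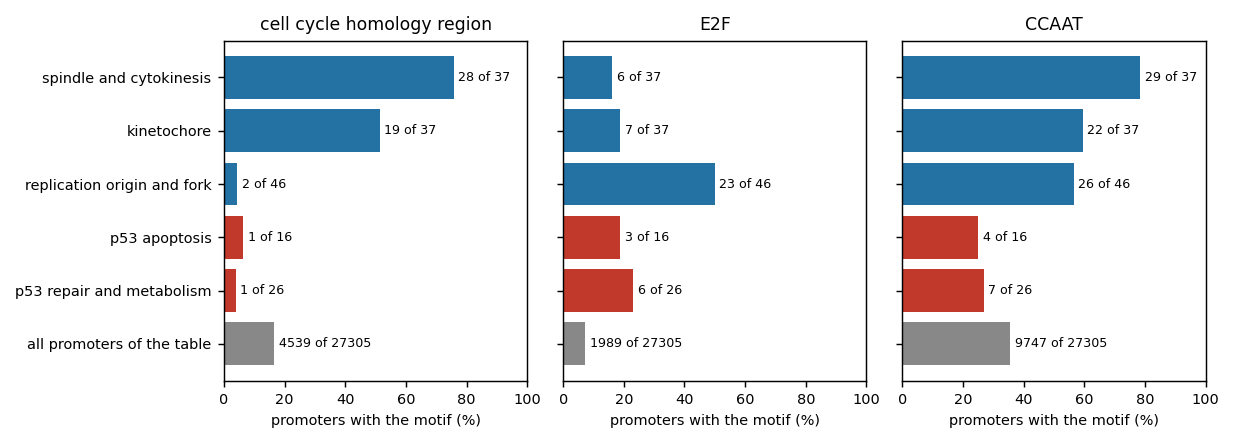
Share of promoters (percent, 250 bases before to 50 after the start) that hold each motif, for 5 gene lists and for all 27305 promoters; labels give the counts. The cell cycle homology region peaks at 75.7% in the spindle list and the E2F motif at 50% in the replication list.

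Of the genes reported as USP7 partners or clients, several of those in chromatin and cell cycle fell at the RNA level. Of 29 tested, 16 fell, 7 rose and 6 were not called (median -0.23). Over shBUB3, by contrast, 10 of the 29 were higher and 10 lower (median -0.01, and -0.11 without the third shBUB3 library). Over shFOXA1 13 were higher and 6 lower (0.20, beside 0.14 for all genes). These counts are not far from the shares of all genes. Those were 29.9% higher and 36.5% lower over shBUB3, and 44.6% and 26.6% over shFOXA1. DNMT1, the maintenance DNA methyltransferase, had 5.49, 5.44 and 5.49 FPKM in shUSP7 libraries against 26.0, 26.1 and 25.1 FPKM in pLKO libraries (-2.05 ± 0.046, adjusted p = 5.4e-11). Its guide protein UHRF1 averaged 0.958 and 5.23 FPKM (-1.67), the checkpoint kinase CHEK1 0.703 and 5.21 FPKM (-1.87), and the histone H4 lysine methyltransferase gene SETD8 5.94 and 22.4 FPKM (-1.76). Besides MDM2, MDM4 and XPC, the histone demethylase gene PHF8 (0.77), REST (0.37) and TRIP12 (0.30) rose. PRC1 subunits, another set of reported clients, changed little in size: 16 of 24 were not called, 6 rose and 2 fell (median 0.03), and the largest change was PHC2 (0.62). RNF2, the PRC1 ubiquitin ligase, averaged 4.09 and 4.56 FPKM and BMI1 1.04 and 1.16 FPKM, neither called. Without the third shBUB3 library 10 PRC1 genes rose and 6 fell, with the median still 0.03. In PRC2 the methyltransferase EZH2 fell, with 5.92, 6.51 and 6.39 FPKM in shUSP7 libraries against 12.7, 12.3 and 12.8 FPKM in pLKO libraries (-0.90 ± 0.061), and its paralog EZH1 rose, with means of 9.38 and 5.20 FPKM (0.74). SUZ12 (-0.69) fell and MTF2 (0.59) rose, and over 11 subunits 5 fell and 2 rose. In the chromatin assembly and DNA methylation list 16 of 20 fell (median -1.17), including ASF1B (-2.97), HMGB2 (-2.60) and the lamin gene LMNB1 (-2.28). DNMT3A (0.23), TET2 (0.55) and TET3 (0.81) were the 3 that rose.

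Androgen-induced genes split. Of 45 tested members 28 fell, 11 rose and 6 were not called, with a median of -0.47. KLK3, which encodes prostate-specific antigen, had 285.0, 294.8 and 316.5 FPKM in shUSP7 libraries against 1092, 1088 and 1086 FPKM in pLKO libraries (-1.86 ± 0.08, adjusted p = 3.1e-09), and its neighbour KLK2 had 13.7, 14.2 and 14.97 FPKM in shUSP7 libraries against 112.2, 111.0 and 112.2 FPKM in pLKO libraries (-2.88). KLK4, of the same cluster, rose, with means of 176.4 and 89.6 FPKM (0.97). ACSL3, a long-chain acyl-CoA ligase, averaged 21.9 and 78.5 FPKM (-1.79), and HPGD, which inactivates prostaglandins, 1.49 and 7.67 FPKM (-1.80). TMPRSS2 (-0.47) and FKBP5 (-0.43) fell less. SLC45A3 averaged 95.9 and 94.97 FPKM and was not called. The largest rises were RHOU, a small GTPase (64.9 and 10.0 FPKM, 2.58), and PLA2G2A, a secreted phospholipase (46.6 and 9.36 FPKM, 2.20).

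FOXA1, the pioneer factor the study is about, was not lower after shUSP7. It had 129.4, 130.6 and 128.5 FPKM in shUSP7 libraries against 115.8, 115.6 and 115.9 FPKM in pLKO libraries, without overlap. The change of 0.16 ± 0.076 did not pass in the fit of 4 groups (adjusted p = 0.0838), whereas the limma fit passed it once the third shBUB3 library was left out (0.16, adjusted p = 0.00033), with the 2 groups alone (0.16, adjusted p = 0.00054) and after median-ratio scaling (0.19, adjusted p = 0.037). Of the other luminal transcription factors tested, ELF3, an epithelial ETS factor, rose most, with 44.7, 47.3 and 45.4 FPKM in shUSP7 libraries and 12.3, 11.9 and 10.8 FPKM in pLKO libraries (1.89), followed by KLF5 (1.20, with means of 3.32 and 0.876 FPKM). ETV1, an ETS oncogene overexpressed in LNCaP, averaged 7.03 and 24.7 FPKM (-1.68), CREB3L4 17.5 and 50.6 FPKM (-1.48), and HOXB13 77.6 and 114 FPKM (-0.55). Over the 18 tested factors 9 fell, 4 rose and 5 were not called.

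Metabolic genes were mostly lower. Of 31 serine and amino acid synthesis genes 25 fell and 0 rose (median -0.81), where 30.2% of all genes rose. PHGDH, the first enzyme of serine synthesis, had 23.8, 26.3 and 24.8 FPKM in shUSP7 libraries against 140.4, 142.0 and 140.0 FPKM in pLKO libraries (-2.45 ± 0.093), the glycine-making enzymes SHMT1 and SHMT2 fell by 1.63 and 1.57, and the transcription factor ATF4 fell by 0.65. Of 34 glycolysis and hypoxia genes 28 fell and 3 rose (median -0.60). The phosphofructokinase PFKP averaged 5.78 and 38.4 FPKM (-2.54), and LDHA, which makes lactate, 90.5 and 261.7 FPKM (-1.52), while HIF1A was not called (-0.19). EGLN3, a prolyl hydroxylase that HIF induces, went the other way, with 13.0, 15.2 and 15.5 FPKM in shUSP7 libraries and 4.44, 3.83 and 4.07 FPKM in pLKO libraries (1.60), and VEGFA rose by 0.97. Of 29 cholesterol genes 20 fell and 4 rose (median -0.44). The sterol regulator SREBF2 averaged 22.2 and 49.9 FPKM (-1.13) and the sensor INSIG1 16.2 and 49.6 FPKM (-1.56). In fatty acid metabolism the synthase FASN had 227.0, 231.8 and 235.3 FPKM in shUSP7 libraries against 564.8, 530.6 and 564.2 FPKM in pLKO libraries (-1.25), and ELOVL6 (-2.23), FADS1 (-2.10) and SCD (-1.31) fell with it. HADHB (1.14), a subunit of the mitochondrial oxidation enzyme, and the carnitine transferase CPT1A (0.53) rose. Over the whole list 17 of 32 fell and 9 rose (median -0.32).

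Lysosome and autophagy genes leaned upward against pLKO: 32 of 55 rose, 14 fell and 9 were not called (median 0.25). Over shBUB3, however, 11 were higher and 34 lower (median -0.26), where 29.9% of all genes were higher and 36.5% lower. Over shFOXA1 20 were higher and 22 lower (0.0004, and -0.15 after median-ratio scaling). There 44.6% of all genes were higher and 26.6% lower. Values that follow are again over pLKO. ATP6V1B2, a subunit of the proton pump, had 52.5, 54.1 and 52.7 FPKM in shUSP7 libraries and 26.6, 26.3 and 25.5 FPKM in pLKO libraries (0.99), and the autophagy genes ULK1 (0.99) and MAP1LC3A (0.99) rose to the same extent. The cathepsin CTSV fell by 1.64. Respiratory chain genes changed little, with 22 of 76 higher, 5 lower and a median of 0.17, and without the third shBUB3 library 41 were called higher and 13 lower. Of 76 cytosolic ribosomal protein genes 7 fell, 2 rose and 67 were not called (median 0.02). Without that library 24 of them rose and 21 fell, with the median still 0.02, and after median-ratio scaling 2 rose and 3 fell. RPL4, with means of 528 and 924 FPKM (-0.81), and RPS10, with means of 6.22 and 3.08 FPKM (0.83), moved most; ribosomal protein genes have many processed pseudogenes that can take up their reads. In the proteasome list 7 of 38 rose and 6 fell (median 0.05), and without the third shBUB3 library 16 rose and 10 fell. The folding genes of the endoplasmic reticulum fell in 14 of 25 cases (median -0.22), with the secreted factor MANF at 38.0 and 88.1 FPKM (-1.19), while the chaperone partner DNAJB9 rose (1.29). Heat shock genes fell in 9 of 20 and rose in 5 (median -0.15), and HSPB1, a small chaperone, averaged 288.9 and 599.1 FPKM (-1.05).

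The gene with the largest fold change in either direction, SI, is in none of the p53 lists. SI (chromosome 3, 164978898 to 165078495), which encodes the intestinal enzyme sucrase-isomaltase, had 34.9, 35.2 and 37.4 FPKM in shUSP7 libraries against 0.688, 0.428 and 0.571 FPKM in pLKO libraries (4.56 ± 0.08, adjusted p = 1.3e-11). The blood carrier gene TTR averaged 16.9 and 1.15 FPKM (3.06) and the urea cycle enzyme gene ARG1 8.63 and 0.456 FPKM (2.73). In the list of liver and gut genes, however, 36 of 48 were under the filter, and of the 12 tested 7 rose and 3 fell, among them AGR2, a protein disulfide isomerase relative (-2.72). LRRN1, a neuronal membrane protein, had 49.9, 49.9 and 53.2 FPKM in shUSP7 libraries and 6.12, 6.23 and 6.55 FPKM in pLKO libraries (2.83), and CROT, a peroxisomal carnitine transferase, averaged 58.3 and 8.99 FPKM (2.57). BCHE (chromosome 3, 165772904 to 165837472), which encodes butyrylcholinesterase, was among the 15 lowest and in none of the gene lists. It had 6.12, 6.24 and 6.43 FPKM in shUSP7 libraries against 64.4, 62.2 and 64.3 FPKM in pLKO libraries (-3.15 ± 0.046). Among genes changed at least 2-fold, the largest losses in mean FPKM after KLK3 and FASN were in HSPB1, the tubulin gene TUBA1B (80.9 and 365.3 FPKM, -2.16), LDHA and the glycolytic gene ENO1 (165 and 331 FPKM, -1.0). Among those genes the largest gains after GDF15 and CDKN1A were in ENDOD1, a nuclease-like gene (225.8 and 83.5 FPKM, 1.43), the histone gene HIST2H2BE (156.0 and 33.3 FPKM, 2.19), RHOB and FDXR.

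Direct comparison with the other knockdowns of the same experiment asked which of these changes differed from those after loss of BUB3 or FOXA1, without use of the shared control. Against shBUB3, 7963 genes were called (66.4%), 3586 higher (29.9%) and 4377 lower (36.5%), with 518 at least 2-fold higher (4.32%) and 431 at least 2-fold lower (3.60%). Against shFOXA1, 8531 were called (71.2%), 5341 higher (44.6%) and 3190 lower (26.6%), with 919 at least 2-fold higher (7.67%) and 571 at least 2-fold lower (4.76%). The second comparison has a scaling limit. Its median over all genes was 0.14, and after median-ratio scaling the share of calls that were higher was 49% in place of 62.6%, so its values are read against that shift.

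The p53 lists had higher medians after shUSP7 than after either other knockdown, more clearly so against shBUB3. Over shBUB3, 18 of 24 arrest targets were higher and 0 lower (median 0.60), 17 of 19 apoptosis targets were higher and 1 lower (0.99), and 22 of 30 repair and metabolism targets were higher and 4 lower (0.63). Without the third shBUB3 library those medians were 0.61, 0.97 and 0.57, with 3 arrest targets lower. Over shFOXA1, 20 of 24 arrest targets were higher and 3 lower, 14 of 19 apoptosis targets were higher and 2 lower, and 15 of 30 repair and metabolism targets were higher and 8 lower, the last close to the 44.6% higher and 26.6% lower of all genes. They had medians of 0.52, 0.55 and 0.33, and after median-ratio scaling 0.36, 0.38 and 0.21. FDXR averaged 111.2 FPKM in shUSP7 cells, against 24.2 in shBUB3 and 15.1 FPKM in shFOXA1 cells, differences of 2.19 ± 0.15 and 2.80 ± 0.15 on the log2 scale. PMAIP1 averaged 37.4 FPKM in shUSP7 cells, against 7.65 in shBUB3 and 5.57 FPKM in shFOXA1 cells (2.15 and 2.55). CDKN1A was less distinct, at 903.8 FPKM in shUSP7 cells against 718.5 and 570.7 FPKM in shBUB3 and shFOXA1 cells (0.33, adjusted p = 0.00113, and 0.66, adjusted p = 3.7e-06), and with the shUSP7 and shBUB3 libraries fitted alone its difference from shBUB3 stood at adjusted p = 0.05. MDM2 did not differ detectably from shBUB3 (-0.01 ± 0.086, adjusted p = 0.936), and without the third shBUB3 library it was called lower (-0.13, adjusted p = 0.037). IGFBP3 was lower after shUSP7 than after shFOXA1 (14.9 and 53.1 FPKM, -1.77).

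Mitotic genes were low in all 3 knockdowns, with small median differences between them and called differences in both directions. In the spindle and cytokinesis list of 43 genes the median difference was 0.05 over shBUB3 (10 higher, 9 lower). It was 0.12 over shFOXA1 (15 higher, 5 lower, and a median of 0.03 after median-ratio scaling). Of all genes 29.9% were higher and 36.5% lower over shBUB3, and 44.6% and 26.6% over shFOXA1. Calls in the spindle list were thus less common than among all genes, in either direction. HMMR averaged 0.936 FPKM in shUSP7 cells, against 0.762 in shBUB3 and 1.16 FPKM in shFOXA1 cells, and neither difference was called (0.14 ± 0.098 and -0.16 ± 0.098). Kinetochore genes had medians of 0.13 and 0.16, and replication genes 0.002 and 0.21. At these levels the log2(FPKM + 1) scale compresses differences. CDC20 was called higher than in both, at 3.31 FPKM in shUSP7 cells against 1.92 in shBUB3 and 2.53 FPKM in shFOXA1 cells (0.56 and 0.29). CCNB1 was higher too, at 12.9 FPKM in shUSP7 cells against 8.07 and 5.32 FPKM (0.62 and 1.14), and CDK1 was lower than in both, at 2.78 FPKM in shUSP7 cells against 3.42 and 4.18 FPKM (-0.22 and -0.46). PTTG1 was called higher over shFOXA1 (0.59) and was not called over shBUB3 (0.23). Without the third shBUB3 library limma called it higher over shBUB3 too (0.43, adjusted p = 0.017). From the chromatin assembly list, LMNB1 stood at 6.97 FPKM in shUSP7 cells against 2.14 in shBUB3 and 2.32 FPKM in shFOXA1 cells (1.35 and 1.27).

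**Figure D5:**
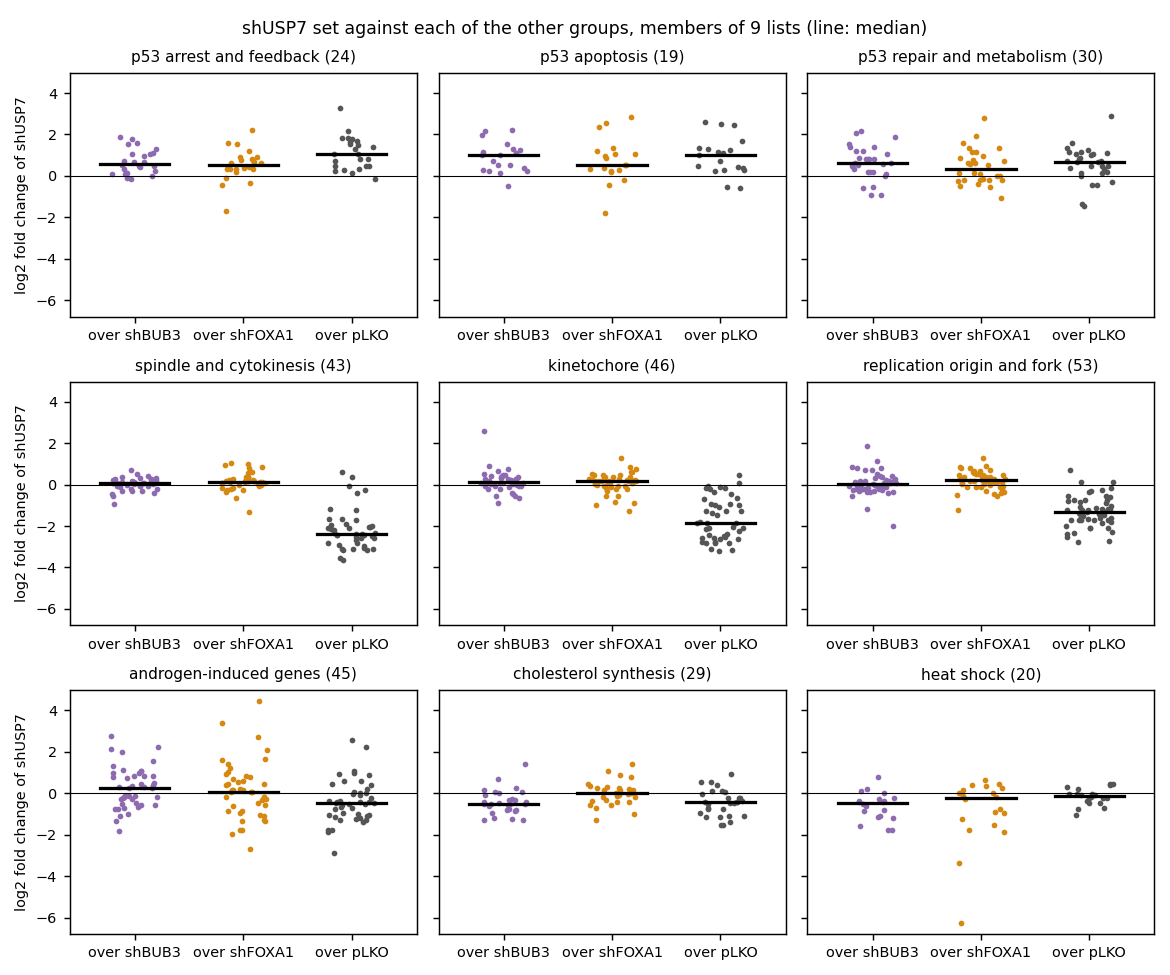
Log2 fold change of shUSP7 over shBUB3, over shFOXA1 and over pLKO for each tested member of 9 gene lists (points) with the median (line). The spindle list sits at 0.05 and 0.12 against the other knockdowns and at -2.39 against pLKO, and the p53 apoptosis list at 0.99, 0.55 and 0.99.

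Elsewhere the knockdowns parted in some lists and not in others. Median differences over shBUB3 and shFOXA1 were 0.08 and 0.16 for recombination and checkpoint genes. They were -0.05 and 0.02 for luminal transcription factors, and 0.04 and -0.34 for serine and amino acid synthesis genes. Over shFOXA1 75 of 76 cytosolic ribosomal protein genes were higher and 0 lower (median 0.84, and 0.66 after median-ratio scaling). Over shBUB3 4 of them were higher and 45 lower (median -0.36, and -0.17 without the third shBUB3 library). Over shBUB3 24 of 32 replication-dependent histone genes were lower and 2 higher (median -0.97), and over shFOXA1 16 were lower and 4 higher (-0.45). Of 20 heat shock genes 15 were lower after shUSP7 than after shBUB3 and 2 higher (median -0.49). Against shFOXA1 11 were lower and 4 higher (-0.23). CRYAB, a small heat shock protein, had 0.728 FPKM in shUSP7 cells against 130.7 FPKM in shFOXA1 cells (-6.25), and the secreted chaperone gene CLU had 2.43 FPKM in shUSP7 cells against 43.8 in shBUB3 and 30.3 FPKM in shFOXA1 cells (-3.67 and -3.19). Cholesterol genes were lower than after shBUB3 in 21 of 29 cases and higher in 3 (median -0.52), but over shFOXA1 10 were higher and 11 lower (-0.02). KLK3 averaged 298.8 FPKM in shUSP7 cells, against 657.9 in shBUB3 and 760.5 FPKM in shFOXA1 cells (-1.13 and -1.35), the lowest of the 3. The 45 androgen-induced genes did not follow it as a set. Over shBUB3 24 were higher and 17 lower (median 0.25), beside 29.9% and 36.5% of all genes. Over shFOXA1 19 were higher and 17 lower (median 0.04), beside 44.6% and 26.6% of all genes. SLC45A3, at 95.9 FPKM in shUSP7 cells, stood at 37.9 in shBUB3 and 3.54 FPKM in shFOXA1 cells (1.32 and 4.42), and the androgen-conjugating enzyme gene UGT2B15 at 43.6 FPKM in shUSP7 cells, 103.2 in shBUB3 and 0.752 FPKM in shFOXA1 cells (-1.23 and 4.67); UGT2B15 and UGT2B17 are near-identical paralogs, between which reads may be shared. ALDH18A1, which makes the proline precursor, averaged 46.4 FPKM in shUSP7 cells and 5.04 FPKM in shBUB3 cells (2.97), and was not called against pLKO (0.06, 44.3 FPKM). Among genes that fell against every other group, MTDH, a membrane protein of metastasis signalling, averaged 5.61 FPKM in shUSP7 cells, against 55.9 in shBUB3, 25.1 in shFOXA1 and 38.9 FPKM in pLKO cells (-3.11, -1.98 and -2.59), and the ubiquitin ligase gene RNF145 averaged 2.45 FPKM in shUSP7 cells, against 27.2, 29.1 and 14.6 FPKM (-3.03, -3.12 and -2.18). BCHE, too, was lower than in shBUB3 (-3.39) and shFOXA1 cells (-2.0). SI, TTR and ARG1 were higher than in both other knockdowns, by 4.60 and 5.05, 3.18 and 3.90, and 2.92 and 2.65 on the log2 scale.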

How the data were processed

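Total RNA of LNCaP cells was sequenced, and the authors deposited FPKM values per gene. The submitters' processing notes name STAR and the build hg38. How reads were counted, on which gene models and with which STAR release is not given in the sources used here. The deposited FPKM values give no read counts, so no count test was run and no counting interval is given. Values were transformed here to log2(FPKM + 1) from the deposited FPKM. limma 3.58.1 in R 4.3.3 was fitted with 1 term per group over the 12 libraries of the experiment, with an intensity trend, and with 8 residual degrees of freedom. Benjamini-Hochberg adjustment ran over all 11987 genes tested, those with at least 1 FPKM in at least 3 of the 6 shUSP7 and pLKO libraries. The fit was checked on simulated data.

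The comparison and the 44 gene lists were chosen with earlier results of these data known. Genes were named by rule: 10 genes of the study and the p53 circuit, the 15 highest and 15 lowest fold changes with no overlap and a mean of at least 1 FPKM in either group, up to 6 called members of each list, the 10 largest rises and falls in mean FPKM among 2-fold changes, and the 6 highest and 6 lowest in each direct contrast. Other genes named were chosen after their values were seen. Replicate numbers did not pair the samples: residuals of same-numbered libraries correlated at 0.02, -0.05 and -0.05. Alternatives were a pseudocount of 0.1, a filter of 5 FPKM or none, median-ratio scaling, the 2 groups alone, a replicate block and leaving out each library. Promoters are RefSeq's, and gene positions GENCODE 29's. Results for some members of the lists are not reported here.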

Additional observations from a re-analysis of the deposited data

How the results depend on the processing

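The number of genes called was 7610, against 9030 with the 2 groups alone, 5413 with a filter of 5 FPKM, 9062 with no filter and 9023 without the third shBUB3 library; of 312 results on named genes 298 kept their direction and their side of the threshold under each alternative run on them, as did 26 of 37 list counts. A filter of 5 FPKM was run on 267 of these gene results, leaving out a pLKO library on the 268 that compare with pLKO, and leaving out the first or second shBUB3 library or any shFOXA1 library on the 22 of the matching direct comparison. With a pseudocount of 0.1, 519 genes were at least 2-fold higher and 1157 lower. With a filter of 5 FPKM fewer genes were tested, and members lower numbered 10 for USP7 partners, 5 for E2F, RB and MuvB, 18 for recombination, 9 for adhesion and 5 for histones, and members higher 3 for interferon-stimulated and 5 for NF-kB genes. Respiratory chain genes higher numbered 42 with the 2 groups alone and 15 to 41 with 1 library left out. Ribosomal protein genes lower numbered 21 with the 2 groups alone, 3 after median-ratio scaling, 3 with no filter and 3 to 21 with 1 library left out; proteasome genes higher 17 with the 2 groups alone and 4 to 16 with 1 library left out; and PRC1 genes higher 5 to 10. With 1 library left out SLC45A3 ranged between -0.0022 and 0.02, and against shBUB3 MDM2 between -0.13 and 0.06 and FOXA1 between -0.08 and 0.09. After median-ratio scaling MDM2 stood at 0.03 against shBUB3 and EZH2 at -0.07 against shFOXA1. The cause of these changes was not tested. The fit with a replicate block called 7535 genes. FPKM hold no read counts, so what depth limits at low levels could not be given as an interval.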

Other observations

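Genes of NF-kB signalling and secreted inflammatory factors were mostly under the filter (22 of 36). Of the 14 tested 9 rose and 3 fell, with a median of 0.37. NFKBIZ, a nuclear NF-kB cofactor, had 6.52, 6.28 and 6.02 FPKM in shUSP7 libraries against 0.782, 0.733 and 0.893 FPKM in pLKO libraries (log2 fold change 2.01), and the feedback inhibitor TNFAIP3 rose by 0.85, while the subunit RELA fell (-0.77). Interferon-stimulated genes divided evenly, with 10 of 26 higher and 10 lower, beside 30.2% higher and 33.3% lower of all genes. IFI6 averaged 24.6 and 7.88 FPKM in shUSP7 and pLKO cells (1.53), and the membrane restriction factor IFITM2 2.99 and 16.4 FPKM (-2.14).

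Replication-dependent histone genes did not move as a block: 10 of 32 tested rose, 13 fell and 9 were not called, beside 30.2% higher and 33.3% lower of all genes. HIST1H2BD averaged 42.4 and 13.3 FPKM in shUSP7 and pLKO cells (1.61) and HIST1H3H 6.4 and 17.2 FPKM (-1.31). Genes of the list are near copies of each other, so their reads may have been shared. In the MYC network MYC itself averaged 59.1 and 102 FPKM (-0.78) and its antagonist partner MXD4 48.5 and 30 FPKM (0.67). Among 47 other deubiquitinases 18 rose and 14 fell (median 0.01), where 30.2% of all genes rose and 33.3% fell. USP54 (1.34) and USP15 (1.02) were highest and USP18 (-1.13) and USP10 (-1.11) lowest. The small RNA gene RN7SK varied widely, at 82.4, 97.7 and 143.9 FPKM in shUSP7 libraries and 11.6, 24.8 and 40.6 FPKM in pLKO libraries (2.16 ± 0.49).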
